A study of Homo sapiens with 8 samples.

Results

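The comparison described here set Reh cells given an shRNA against CBFA2T3 together with IKKβ(EE) against Reh cells given a control shRNA. It rests on 4 of the 8 arrays of the series, 2 per group, chosen by their titles and paired by the replicate number in them. Reh is an established human B-cell precursor line. The design text traces it to acute lymphoblastic leukemia, while the sample labels file it under non-Hodgkin lymphoma. The 4 groups were CBFA2T3 shRNA with IKKβ(EE), CBFA2T3 shRNA alone, IKKβ(EE) alone and control shRNA, with 2 biological replicates each. The labels describe the knockdown and the IKKβ(EE) expression as transient. Each group is a treated population of 1 cell line. The sources used here do not give the share of cells that took up a construct or the time of harvest. Nor do they say if a control shRNA was present beside IKKβ(EE) alone. Fewer responding cells and a smaller change per cell cannot be told apart in these values.

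NF-κB is a family of dimeric transcription factors that is held in the cytoplasm by IκB proteins until the IκB kinases, of which IKKβ is a catalytic subunit, mark the inhibitors for degradation. IKKβ(EE) is a constitutively active variant, so it drives this step without an upstream signal, and in B cells the genes induced this way include cytokines, costimulatory receptors, survival factors and the pathway's own inhibitors. CBFA2T3, also called ETO2 or MTG16, is a transcriptional corepressor of the ETO family that works with DNA-binding factors of blood progenitors. Type I and type III interferons act through STAT and IRF factors on a partly separate set of antiviral genes.

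Total RNA was hybridized to Affymetrix U133 Plus 2.0 arrays, and all values are the authors' RMA probe set intensities on the log2 scale, in which 1 unit is a doubling. The file holds no detection calls. A value under log2 5 is treated here as close to background, so a fold from such a value is uncertain, and a probe set was tested if it reached log2 5 on at least 2 of the 8 arrays. That left 24481 probe sets and, at 1 probe set per gene, 11449 genes. Across the tested probe sets the array pairs correlated between 0.937 and 0.991, with 0.983 for the arrays of both constructs and 0.991 for the control arrays. Of 17 measured B-precursor markers, 16 stood at log2 5 or more on all 4 compared arrays. The mean level of all 17 was 10.56 and 10.45 with both constructs, against 10.55 and 10.79 with control shRNA. Among markers of other cells, 15 of 24 T-cell and NK-cell, 19 of 28 myeloid, 6 of 11 erythroid and 11 of 15 stromal genes lay under log2 5 on all 4 arrays. The difference between 3′ and 5′ probe sets of GAPDH, a sign of RNA integrity, was 0.264 and 0.284 with both constructs, against 0.325 and 0.346 with control shRNA. For ACTB it was 1.65 and 1.505 with both constructs, against 1.55 and 1.94 with control shRNA, with the groups overlapping.

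Changes are differences of group means on the log2 scale, ± the standard error of the fit, with p-values from limma adjusted by the Benjamini-Hochberg method over all tested probe sets. A gene is said to have risen or fallen where its adjusted p was under 0.05 in a fit that held the replicate number as a block. By this rule 24.1% of genes differed between both constructs and control shRNA, 1432 genes (12.5%) higher and 1323 (11.6%) lower. Over probe sets the share was 23.7%. Among the 10721 genes at log2 5 or more on both control arrays 23.4% differed, 11.2% higher and 12.2% lower. These shares are the background against which the counts of list members below are read. The lists were chosen with earlier results of these data known, so their counts describe the changes and do not test them. Rises were larger than falls, with a median fold of 1.62 among genes that rose and 1.49 among genes that fell. At least 4-fold differences were seen in 161 genes that rose and 6 that fell, and at least 8-fold differences in 67 and 0. Without the block 8.73% of genes were called, 569 higher (4.97%) and 431 lower (3.76%).

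The replicates differed in size of response. Among the 2755 called genes the median size of the difference was 0.487 in replicate 1 and 0.761 in replicate 2, and 84.1% of them differed more in replicate 2. Over all genes tested the medians were 0.184 and 0.268, and 68.4% differed more in replicate 2. Without replicate 2 of both constructs 1619 probe sets were called, and without control replicate 2 1185, against 5810 with all arrays. The calls of 393 genes that rose and 138 that fell were kept whichever single array of the 8 was left out. Of these, 320 and 123 were also called without the block. Where a list's count of 2 or more moved by over 1.5 times without an array or the block, its count under that fit follows it. Members that reached log2 5 only in other groups than control had to differ to be tested, so the count over members at log2 5 or more on both control arrays is given too for lists with several such members.

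**Figure D1:**
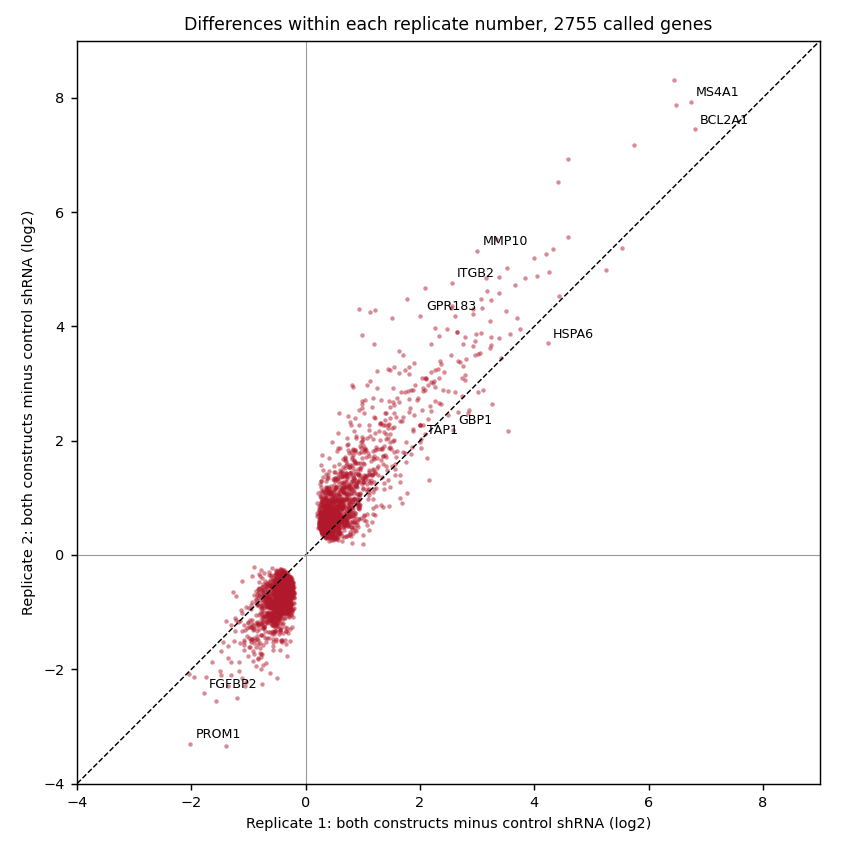
Each point is 1 of the 2755 genes called with both constructs against control shRNA; the horizontal axis is the difference on the log2 scale in replicate 1, the vertical axis that in replicate 2, and the dashed line marks equal values. Most points, 84.1% of the genes, lie farther from 0 in replicate 2, and HSPA6, TAP1 and GBP1 are near or below the line.

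The targeted genes were read first. CBFA2T3 was at 8.23 and 7.83 with both constructs, against 9.22 and 9.29 with control shRNA, a change of -1.23 ± 0.14 (adjusted p = 0.00177). Both arrays with both constructs lay below both control arrays, and 42.8% of the control level was left. IKBKB, the gene of IKKβ, read 11.45 and 11.97 with both constructs, against 3.97 and 4.02 with control shRNA, on 1 of its 3 probe sets (7.71 ± 0.28, adjusted p = 3.11e-05). On the same probe set cells with IKKβ(EE) alone were at 10.85 and 10.39. The difference between both constructs and IKKβ(EE) alone, 1.09 ± 0.28, did not pass the test (adjusted p = 0.0714). The other 2 IKBKB probe sets changed by 0.09 ± 0.12 and 0.38 ± 0.16 and did not pass the test (adjusted p = 0.652 and 0.131). CSF1R, a macrophage growth factor receptor gene, was near background at 5.18 and 5.02 with both constructs, against 4.95 and 5.004 with control shRNA (0.12 ± 0.17, adjusted p = 0.634).

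Many genes of the NF-κB system itself were called higher. Among the subunits and IκB proteins 7 of 10 tested genes rose and 0 fell, with a median change of 1.14 against -0.02 over all genes. The largest change was in NFKBIZ, an inducible nuclear IκB protein that takes part in secondary gene induction. It was at 10.02 and 10.80 with both constructs, against 5.76 and 5.84 with control shRNA (24.4-fold, 4.61 ± 0.18, adjusted p = 3.94e-05). Both arrays with both constructs stood far above both control arrays, which were close to each other. The precursor of the p52 subunit, NFKB2, stood at 6.01 and 7.72 with both constructs, against 4.38 and 4.53 with control shRNA (2.41 ± 0.34, adjusted p = 0.00432). RELB, its usual dimer partner, read 6.70 and 7.87 with both constructs, against 5.01 and 5.53 with control shRNA (2.01 ± 0.15, adjusted p = 0.00045). In both genes replicate 2 with both constructs was the higher of the pair, and the groups did not overlap. NFKBIE, which codes for IκBε, rose by 1.87 ± 0.28 (adjusted p = 0.00515). All 4 were also called without the replicate block.

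Inhibitors and survival adaptors downstream of NF-κB rose in 12 of 14 tested genes and fell in 0 (median change 1.23). TRAF1, an adaptor of TNF receptors, was at 8.44 and 9.52 with both constructs, against 4.73 and 5.36 with control shRNA (3.93 ± 0.21, adjusted p = 0.000128), a 15.2-fold difference. CFLAR codes for the caspase-8 inhibitor c-FLIP and was at 9.13 and 10.32 with both constructs, against 6.76 and 6.98 with control shRNA (2.85 ± 0.21, adjusted p = 0.000379). Its 11 further probe sets changed by 0.55 to 2.70, and 10 of them rose. TNFAIP8 (1.68 ± 0.17) and TNFAIP2 (1.58 ± 0.10) rose as well. The kinases and adaptors upstream of NF-κB had 5 of 17 tested members higher and 0 lower, with a median of 0.27. Rises numbered 1 without control replicate 2, 2 without replicate 2 of both constructs or the replicate block and 3 without replicate 1 of both constructs, either CBFA2T3 shRNA array or either IKKβ(EE) array. In that group MAP3K8, a kinase that links NF-κB1 to the ERK cascade, changed most. It was at 7.39 and 7.98 with both constructs, against 5.29 and 4.88 with control shRNA (2.60 ± 0.26, adjusted p = 0.00121), with no overlap between the groups. MYD88, an adaptor of Toll-like receptors (0.84 ± 0.14), TAB3 (0.80 ± 0.12) and IKBKG, the regulatory subunit of the IκB kinase complex (0.39 ± 0.11), changed by less than 1. MYD88 lost the call without replicate 2 of both constructs or control replicate 2 (adjusted p up to 0.0712). TAB3 lost the call without control replicate 2 (adjusted p up to 0.0571). IKBKG lost the call without replicate 1 of both constructs, replicate 2 of both constructs, control replicate 2 or any array of the single constructs (adjusted p up to 0.239). TAB3 and IKBKG missed the test without the replicate block (adjusted p 0.0686 to 0.092).

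**Figure D2:**
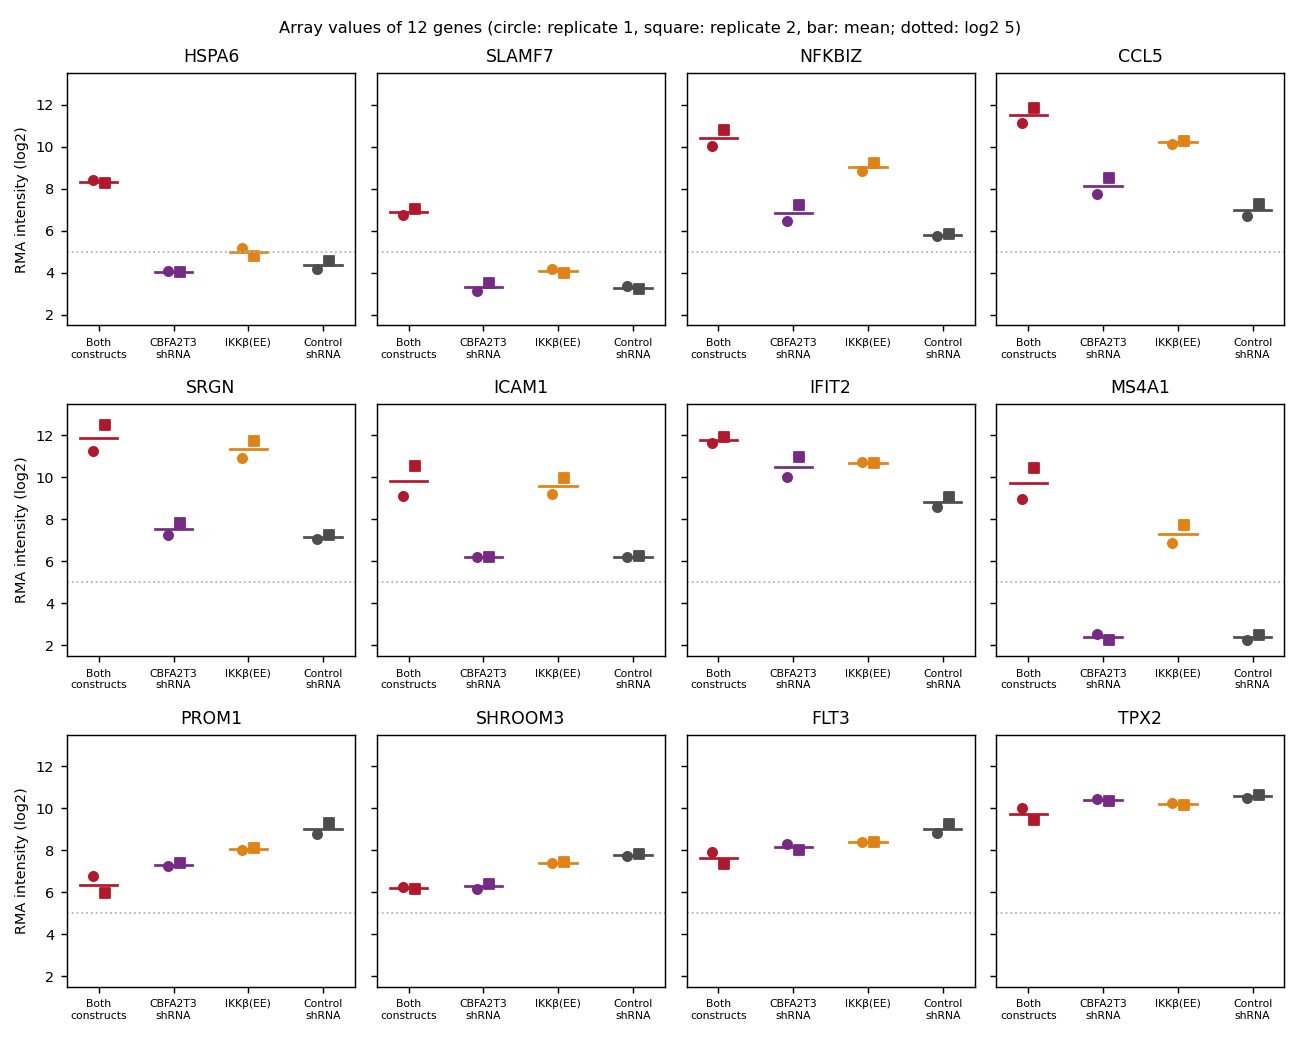
RMA intensity (log2) of 12 genes on every array, by group, with circles for replicate 1, squares for replicate 2, bars for the mean of 2 arrays and a dotted line at log2 5. HSPA6 and SLAMF7 stand well above log2 5 with both constructs and near or under it on all other arrays, while SRGN and ICAM1 are close to their level with IKKβ(EE) alone and SHROOM3 to its level with CBFA2T3 shRNA alone.

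Secreted signalling proteins showed some of the largest differences. Of 37 chemokine genes listed 12 reached the floor, and of those 10 rose and 0 fell. Only 3 of the 12 were at log2 5 or more on both control arrays, of which 2 rose, so the rest passed the floor at least in part through other groups. CCL5, an attractant of T cells and monocytes that was already present in control cells, was at 11.15 and 11.82 with both constructs, against 6.72 and 7.30 with control shRNA (4.48 ± 0.15, adjusted p = 2.53e-05), a 22.3-fold difference. Its 2 further probe sets rose by 4.19 and 3.99. The macrophage chemokine gene CCL4 read 10.28 and 11.61 with both constructs, against 4.54 and 4.43 with control shRNA (6.46 ± 0.50, adjusted p = 0.000461). CXCL10, a ligand of CXCR3, read 8.61 and 9.46 with both constructs, against 3.35 and 4.48 with control shRNA (5.12 ± 0.32, adjusted p = 0.0002). CXCL11, another CXCR3 ligand, read 7.89 and 8.31 with both constructs, against 2.35 and 2.93 with control shRNA (5.46 ± 0.25, adjusted p = 7.07e-05). Control values of CCL4, CXCL10 and CXCL11 were near background, and none of these genes overlapped between groups.

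Interleukins and related cytokine ligands rose in 8 of 14 tested genes and fell in 0. Of the 8 at log2 5 or more on both control arrays 3 rose, with a median change of 0.19 against 0.60 over the 14. Rises numbered 5 without control replicate 2. EBI3, the shared subunit of IL-27 and IL-35, read 8.34 and 10.10 with both constructs, against 3.76 and 3.17 with control shRNA (5.76 ± 0.46, adjusted p = 0.000491). IL23A, the p19 subunit of IL-23, read 7.56 and 9.17 with both constructs, against 4.95 and 4.997 with control shRNA (3.39 ± 0.37, adjusted p = 0.00177). In both genes the higher value with both constructs was that of replicate 2. IL15, a survival cytokine of lymphocytes, was clearly present in control cells and was at 9.24 and 10.32 with both constructs, against 7.06 and 7.29 with control shRNA (2.61 ± 0.19, adjusted p = 0.000335). IFNG, the type II interferon gene, was at 6.21 and 6.52 with both constructs, against 3.84 and 3.88 with control shRNA (2.51 ± 0.19, adjusted p = 0.000379). IFNL2, a type III interferon gene, was at 7.05 and 8.53 with both constructs, against 3.67 and 3.96 with control shRNA (3.98 ± 0.39, adjusted p = 0.00111). Both interferon genes were near background in control cells. Among TNF family ligands 5 of 9 tested genes rose and 0 fell. TNFSF4, the OX40 ligand (2.75 ± 0.23), TNFSF9, the 4-1BB ligand (2.57 ± 0.23), CD70, the ligand of CD27 (1.93 ± 0.24), and LTA, lymphotoxin α (1.81 ± 0.20), were among them.

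Receptors were more mixed. TNF receptors rose in 6 of 15 tested genes and fell in 0, and in 4 of the 12 at log2 5 or more on both control arrays. Rises numbered 3 without control replicate 2. TNFRSF9, the 4-1BB receptor, was at 7.69 and 8.93 with both constructs, against 3.64 and 4.06 with control shRNA (4.46 ± 0.29, adjusted p = 0.000218). FAS, the death receptor, was at 8.36 and 9.48 with both constructs, against 5.18 and 4.86 with control shRNA (3.90 ± 0.32, adjusted p = 0.000545). CD40, the B-cell costimulatory receptor, was at 9.38 and 10.52 with both constructs, against 6.96 and 7.33 with control shRNA (2.81 ± 0.20, adjusted p = 0.000328). In all 3 the lower array with both constructs was well above the higher control array. Cytokine receptors rose in 12 of 23 tested genes, and in 10 of the 18 at log2 5 or more on both control arrays. Rises numbered 5 without control replicate 2 and 6 without replicate 2 of both constructs or the replicate block. IL21R, the IL-21 receptor chain, changed most and was at 7.54 and 9.96 with both constructs, against 4.99 and 6.47 with control shRNA (3.02 ± 0.26, adjusted p = 0.000669). IL4R (1.96 ± 0.32), IL15RA (1.42 ± 0.20) and IL2RG, the common γ chain (1.17 ± 0.13), followed. The 3 that fell were FLT3, KIT and IL7R, 13.0% of those tested and close to the 11.6% over all genes. FLT3 was at 7.92 and 7.32 with both constructs, against 8.79 and 9.26 with control shRNA (-1.41 ± 0.23, adjusted p = 0.00675), KIT changed by -1.07 ± 0.17, and IL7R, the IL-7 receptor α chain, was at 11.81 and 11.52 with both constructs, against 12.51 and 12.35 with control shRNA (-0.76 ± 0.10, adjusted p = 0.00332). The groups did not overlap in FLT3 or IL7R. IL4R and KIT lost the call without control replicate 2 (adjusted p up to 0.0631). IL21R missed the test without the replicate block (adjusted p = 0.0769).

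Homing receptors rose in 6 and fell in 3 of 12 tested genes. Of the 9 at log2 5 or more on both control arrays 3 rose and 3 fell. CCR7, which guides cells to lymph nodes, read 8.62 and 9.29 with both constructs, against 4.03 and 3.72 with control shRNA (5.08 ± 0.23, adjusted p = 7.07e-05). The prostaglandin receptor gene PTGER4 was already bright in control cells and was at 11.18 and 12.36 with both constructs, against 8.17 and 8.84 with control shRNA (3.26 ± 0.16, adjusted p = 8.39e-05). Its further probe set changed by 0.42. GPR183, an oxysterol receptor of B-cell positioning, rose by 3.10 ± 0.45 and the sphingosine phosphate receptor gene S1PR3 by 2.55 ± 0.19, although its further probe set changed by -0.19 and was not called (adjusted p = 0.417). ACKR3, a scavenger receptor of CXCL12, fell by 1.25 ± 0.20. Falls numbered 1 without replicate 2 of both constructs, control replicate 1, control replicate 2 or the replicate block.

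Surface molecules that mark activated or antigen-presenting cells rose in 15 of 18 tested genes and fell in 0, with a median change of 2.09. Of the 11 at log2 5 or more on both control arrays 9 rose. ICAM1, the ligand of the integrin LFA-1, was at 9.14 and 10.56 with both constructs, against 6.20 and 6.26 with control shRNA (3.62 ± 0.32, adjusted p = 0.000703), a 12.3-fold difference. CD83, a maturation marker of dendritic cells and activated B cells, was at 9.95 and 11.26 with both constructs, against 7.60 and 7.86 with control shRNA (2.87 ± 0.27, adjusted p = 0.000885). LAMP3, which codes for a lysosomal membrane protein, read 9.60 and 11.25 with both constructs, against 3.12 and 3.38 with control shRNA (7.17 ± 0.28, adjusted p = 3.98e-05). The groups were far apart in all 3, and LAMP3 was at background in control cells. The lymphocyte receptor gene SLAMF1 read 7.21 and 8.80 with both constructs, against 3.97 and 4.32 with control shRNA (3.86 ± 0.27, adjusted p = 0.000328). CD69, an early activation antigen outside that list, was at 10.11 and 11.51 with both constructs, against 7.35 and 8.21 with control shRNA (3.03 ± 0.14, adjusted p = 7.78e-05). Neither overlapped between groups.

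MHC class I genes and their peptide loading machinery rose in 15 of 19 tested genes and fell in 0, with a median of 0.55. Rises numbered 6 without control replicate 2, 7 without replicate 2 of both constructs and 9 without control replicate 1 or the replicate block. TAP1, a subunit of the peptide transporter, was at 11.59 and 11.42 with both constructs, against 9.57 and 9.39 with control shRNA (2.03 ± 0.14, adjusted p = 0.000305). NLRC5, the class I transactivator, was at 10.45 and 9.96 with both constructs, against 8.80 and 8.97 with control shRNA (1.32 ± 0.18, adjusted p = 0.00372). HLA-F read 12.44 and 12.59 with both constructs, against 11.54 and 11.69 with control shRNA (0.90 ± 0.12, adjusted p = 0.00337). TAP1 and NLRC5 had their higher value with both constructs in replicate 1, and the groups did not overlap in any of the 3. Class II genes rose in 10 of 17 tested genes (median 0.37), and 1 fell, RFXAP, a subunit of the class II promoter complex RFX (-0.47 ± 0.14). Rises numbered 3 without replicate 2 of both constructs or the replicate block and 4 without control replicate 2. HLA-DQA1, at 1 probe set per gene the largest rise among all genes named here, read 10.88 and 12.27 with both constructs, against 4.43 and 3.96 with control shRNA (7.38 ± 0.37, adjusted p = 0.000109). HLA-DQB1, the partner chain, was already bright in control cells and was at 10.95 and 11.49 with both constructs, against 9.81 and 10.18 with control shRNA (1.23 ± 0.10, adjusted p = 0.000638). HLA-DOB, a modulator of class II peptide loading (1.31 ± 0.23), and the lysosomal protease gene CTSS (0.91 ± 0.10) rose too. Alleles and near-identical copies of HLA genes can share these probe sets. HLA-DOB lost the call without replicate 2 of both constructs (adjusted p up to 0.0662). RFXAP lost the call without replicate 2 of both constructs, control replicate 1, control replicate 2 or any array of the single constructs (adjusted p up to 0.319). HLA-DOB and RFXAP missed the test without the replicate block (adjusted p 0.066 to 0.121).

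Interferon-response genes formed a further block of rises. Antiviral effectors rose in 32 of 44 tested genes, in 29 of the 41 at log2 5 or more on both control arrays, and fell in 0, with a median change of 0.73. The median was 0.82 in replicate 1 and 0.77 in replicate 2. Rises numbered 19 without control replicate 2. RSAD2, which codes for the antiviral enzyme viperin, was at 10.60 and 10.91 with both constructs, against 6.84 and 6.96 with control shRNA (3.85 ± 0.32, adjusted p = 0.000577), a 14.4-fold difference. The exonuclease gene ISG20 was at 9.67 and 10.49 with both constructs, against 6.26 and 7.04 with control shRNA (3.43 ± 0.28, adjusted p = 0.000529). IFIT2, which binds viral RNA, was at 11.63 and 11.92 with both constructs, against 8.61 and 9.06 with control shRNA (2.94 ± 0.21, adjusted p = 0.000348). The 3 genes were well expressed in control cells and did not overlap between groups. OASL, an OAS-like antiviral gene, was at 7.94 and 8.45 with both constructs, against 4.70 and 4.78 with control shRNA (3.46 ± 0.29, adjusted p = 0.000569). Interferon-inducible GTPases rose in 6 of 7 tested genes, and in 3 of the 4 at log2 5 or more on both control arrays. GBP5 read 7.96 and 8.97 with both constructs, against 3.96 and 3.77 with control shRNA (4.60 ± 0.25, adjusted p = 0.000128). GBP2 read 8.24 and 9.41 with both constructs, against 4.72 and 4.38 with control shRNA (4.27 ± 0.33, adjusted p = 0.000446). Both were close to background in control cells. GBP1 was well above it and was at 11.33 and 10.56 with both constructs, against 8.75 and 8.37 with control shRNA (2.39 ± 0.22, adjusted p = 0.000802).

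Interferon regulators and sensors rose in 18 of 30 tested genes and fell in 1, and rose in 16 of the 27 at log2 5 or more on both control arrays. Rises numbered 8 without control replicate 2 and 10 without replicate 2 of both constructs. SOCS1, a feedback inhibitor of JAK kinases, rose by 4.005 ± 0.35 and STAT5A by 1.85 ± 0.19. IRF9, the DNA-binding subunit of the interferon-activated complex ISGF3, was at 8.61 and 8.67 with both constructs, against 6.20 and 5.79 with control shRNA (2.64 ± 0.25, adjusted p = 0.000885). The RNA sensor gene IFIH1 was at 10.38 and 11.07 with both constructs, against 8.04 and 8.42 with control shRNA (2.50 ± 0.15, adjusted p = 0.0002). Neither overlapped between groups. STAT5B was the 1 that fell (-0.43 ± 0.12), although its further probe sets changed by -0.28 to 0.22 and were not called (adjusted p 0.179 to 0.935). STAT5B lost the call without replicate 1 of both constructs, replicate 2 of both constructs, control replicate 1, control replicate 2 or either IKKβ(EE) array (adjusted p up to 0.204). STAT5B missed the test without the replicate block (adjusted p = 0.165).

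Promoter sequences are shown for 6 of the genes that rose, as examples of windows that hold letters read by the factors of these pathways. They come from RefSeq on GRCh38.p14, and promoters were found for 169 of 222 named entries. Each runs from 250 bases before to 50 bases after the annotated start, 5′ to 3′ on the gene's strand. In the first 5, capitals mark matches to the NF-κB consensus and to the interferon-stimulated response element, here a pair of GAAA blocks 2 bases apart. In HSPA6 they mark the heat shock element, the blocks GAA, TTC and GAA with 2 bases between neighbours. Both strands were searched. The motif of TNFRSF9 matches on both strands at overlapping positions, and neighbouring response elements of TAP1 and of IFIH1 overlap. Matches to the AP-1 letters TGANTCA are not capitalised.
NFKBIZ promoter, chr3:101827740-101828039, plus strand: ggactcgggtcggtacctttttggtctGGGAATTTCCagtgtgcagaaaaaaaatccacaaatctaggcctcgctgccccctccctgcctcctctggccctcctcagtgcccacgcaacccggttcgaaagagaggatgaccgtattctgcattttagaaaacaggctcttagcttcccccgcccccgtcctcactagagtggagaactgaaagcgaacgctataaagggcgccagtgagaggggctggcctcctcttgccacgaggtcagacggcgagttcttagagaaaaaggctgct
TNFRSF9 promoter, chr1:7940790-7941089, minus strand: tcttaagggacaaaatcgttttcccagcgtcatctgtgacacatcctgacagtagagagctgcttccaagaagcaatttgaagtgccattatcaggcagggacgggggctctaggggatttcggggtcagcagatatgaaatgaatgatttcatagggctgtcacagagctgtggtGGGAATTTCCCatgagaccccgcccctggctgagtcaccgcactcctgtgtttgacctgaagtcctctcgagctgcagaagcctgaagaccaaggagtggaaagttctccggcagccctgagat
CXCL10 promoter, chr4:76023448-76023747, minus strand: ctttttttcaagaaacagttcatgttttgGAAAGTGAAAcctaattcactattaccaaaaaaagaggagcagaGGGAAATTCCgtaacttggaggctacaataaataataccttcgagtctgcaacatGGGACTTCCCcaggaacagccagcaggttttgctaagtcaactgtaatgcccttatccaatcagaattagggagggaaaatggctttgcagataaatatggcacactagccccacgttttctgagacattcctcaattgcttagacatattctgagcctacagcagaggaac
TAP1 promoter, chr6:32853655-32853954, minus strand: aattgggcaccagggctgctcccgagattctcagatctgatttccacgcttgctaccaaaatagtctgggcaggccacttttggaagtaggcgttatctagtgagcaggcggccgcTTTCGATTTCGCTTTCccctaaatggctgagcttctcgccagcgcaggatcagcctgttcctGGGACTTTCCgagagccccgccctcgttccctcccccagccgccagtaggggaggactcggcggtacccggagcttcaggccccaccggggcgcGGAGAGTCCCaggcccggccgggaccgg
IFIH1 promoter, chr2:162318635-162318934, minus strand: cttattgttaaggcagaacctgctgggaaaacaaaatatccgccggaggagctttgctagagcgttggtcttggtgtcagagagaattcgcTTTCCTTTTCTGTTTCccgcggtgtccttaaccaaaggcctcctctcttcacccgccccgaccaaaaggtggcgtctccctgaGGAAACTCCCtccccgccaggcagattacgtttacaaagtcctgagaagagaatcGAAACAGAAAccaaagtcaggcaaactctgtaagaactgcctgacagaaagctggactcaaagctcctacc
HSPA6 promoter, chr1:161524290-161524589, plus strand: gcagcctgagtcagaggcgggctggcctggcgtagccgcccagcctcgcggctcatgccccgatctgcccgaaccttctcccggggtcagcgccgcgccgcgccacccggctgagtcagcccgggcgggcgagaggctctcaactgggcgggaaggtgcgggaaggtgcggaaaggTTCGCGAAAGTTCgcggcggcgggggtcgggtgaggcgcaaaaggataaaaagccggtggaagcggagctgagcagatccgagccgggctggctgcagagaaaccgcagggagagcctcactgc
These matches describe letters and do not show binding. The NF-κB consensus was found in 9.97% of 1154 promoters of genes that rose and 6.51% of 1090 of genes that fell, against 6.75% of 9361 promoters of all genes tested and 5.72% of all 27305 promoters of this length. In the same order of sets, the interferon element was found in 6.59%, 1.47%, 2.93% and 3.65%. AP-1 letters were found in 6.85%, 2.66%, 4.22% and 7.76%, and the heat shock element in 0.61%, 0.28%, 0.35% and 0.49%. The share with AP-1 letters in genes that rose thus lay above that of the genes tested and below that of all promoters. Among 104 promoters of genes that rose 4-fold or more in the fits with and without the block, the shares were 18.3% for the NF-κB consensus, 17.3% for the interferon element, 18.3% for AP-1 letters and 1.92% for the heat shock element.

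The BCL2 family, which sets the threshold of cell death at mitochondria, had 6 of 14 tested members higher and 0 lower, and 4 higher of the 12 at log2 5 or more on both control arrays. Rises numbered 2 without the replicate block and 3 without replicate 2 of both constructs, control replicate 2 or either IKKβ(EE) array. BCL2A1, a pro-survival NF-κB target, was at background in control cells and read 9.65 and 10.81 with both constructs, against 2.85 and 3.36 with control shRNA (7.13 ± 0.17, adjusted p = 8.66e-06). PMAIP1, which codes for the pro-death BH3 protein NOXA, was bright in both groups and was at 12.78 and 13.11 with both constructs, against 11.34 and 11.63 with control shRNA (1.46 ± 0.11, adjusted p = 0.000481). HRK, another BH3-only gene (1.04 ± 0.12), and the pro-survival gene MCL1 (0.54 ± 0.15) rose as well. The members that rose thus include genes known to oppose and genes known to promote cell death. Caspases and related genes had 3 higher and 2 lower of 16 tested (18.75% and 12.5%, against 12.5% and 11.6% over all genes). These counts were 0 and 0 without control replicate 2, 1 and 0 without replicate 2 of both constructs, and 1 and 1 without the replicate block. CASP1, the inflammatory caspase (0.74 ± 0.12), the caspase inhibitor gene XIAP (0.60 ± 0.12) and CASP8 (0.50 ± 0.11) were higher. APAF1, the apoptosome scaffold (-0.72 ± 0.11), and CASP6 (-0.62 ± 0.12) were lower. The further probe sets of CASP8 (0.15) and APAF1 (-0.26) were not called (adjusted p = 0.533 and 0.191). Those of CASP1 and CASP6 were called in the same direction, and those of XIAP in part. MCL1 lost the call without replicate 2 of both constructs, control replicate 2 or any array of the single constructs (adjusted p up to 0.251). CASP1 lost the call without control replicate 2 (adjusted p up to 0.0579). XIAP lost the call without replicate 2 of both constructs, control replicate 1 or control replicate 2 (adjusted p up to 0.105). CASP8, APAF1 and CASP6 lost the call without replicate 2 of both constructs or control replicate 2 (adjusted p up to 0.134). HRK, MCL1, XIAP, CASP8 and CASP6 missed the test without the replicate block (adjusted p 0.0522 to 0.168).

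Immediate early transcription factors, which respond quickly to growth and stress signals, rose in 19 of 26 tested genes and fell in 0 (median 1.06). Of the 19 at log2 5 or more on both control arrays 12 rose. Rises numbered 9 without control replicate 2, 10 without replicate 2 of both constructs and 12 without the replicate block. EGR1 was at 8.57 and 10.20 with both constructs, against 5.24 and 4.66 with control shRNA (4.43 ± 0.44, adjusted p = 0.00112). FOS, a subunit of AP-1, was at 7.39 and 8.52 with both constructs, against 4.70 and 5.15 with control shRNA (3.04 ± 0.26, adjusted p = 0.000624). EGR3 read 4.63 and 6.78 with both constructs, against 2.30 and 2.95 with control shRNA (3.08 ± 0.31, adjusted p = 0.00122). All 3 were at or near background in control cells. JUN, the FOS partner in AP-1, was at 10.36 and 11.41 with both constructs, against 6.81 and 9.23 with control shRNA (2.86 ± 0.30, adjusted p = 0.00134). Its control arrays lay far apart, and it missed the test without the block (adjusted p = 0.076). Feedback inhibitors of MAP kinase and G-protein signalling rose in 16 of 25 tested genes and fell in 1, and in 12 of the 21 at log2 5 or more on both control arrays. Rises numbered 5 without the replicate block, 6 without control replicate 2 and 10 without replicate 2 of both constructs. The ERK phosphatase gene DUSP5 read 6.24 and 7.85 with both constructs, against 3.67 and 3.49 with control shRNA (3.46 ± 0.38, adjusted p = 0.00171). RGS16 (2.38 ± 0.24) and RGS1 (1.89 ± 0.16), which end G-protein signals, and the phosphatase gene DUSP10 (2.26 ± 0.20) rose too. The kinase gene SGK1 was bright in both groups and was at 10.22 and 11.81 with both constructs, against 7.58 and 7.92 with control shRNA (3.27 ± 0.25, adjusted p = 0.000463). RGS1 missed the test without the replicate block (adjusted p = 0.0692).

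**Figure D3:**
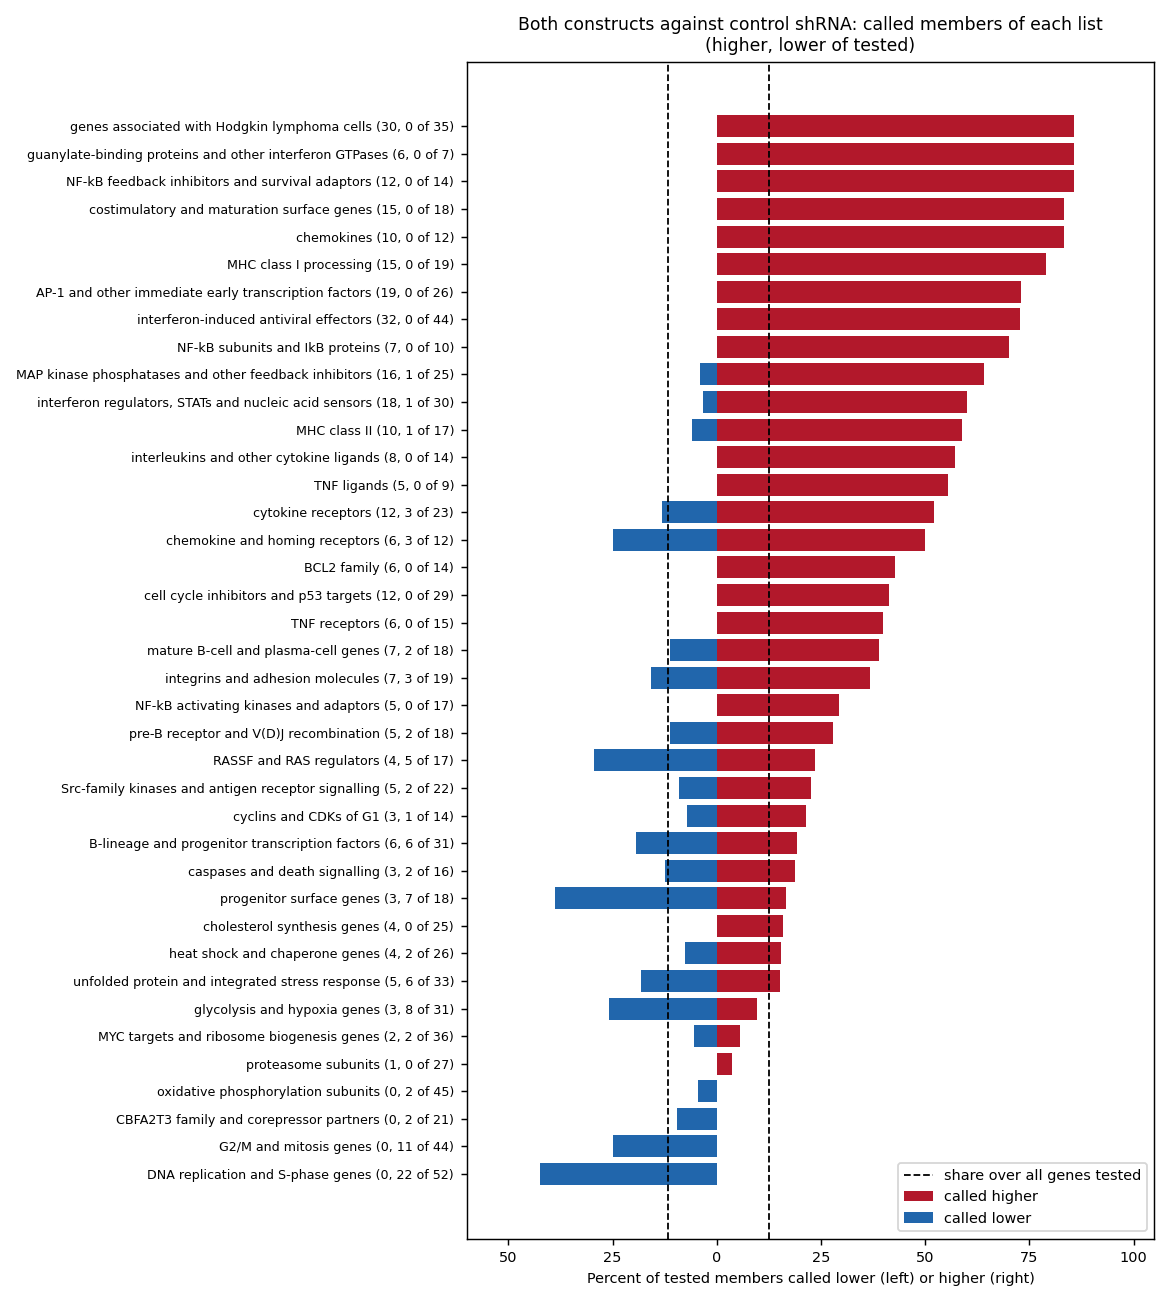
Percent of tested members of the gene lists shown that were called higher (right, red) or lower (left, blue) with both constructs against control shRNA, with dashed lines at the shares over all genes, 12.5% higher and 11.6% lower. Chemokines, costimulatory genes, guanylate-binding proteins and NF-κB feedback genes have most of their tested members called higher, and the S-phase and G2/M lists have members called lower and 0 called higher.

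B-lineage genes moved in both directions. B-lineage and progenitor transcription factors had 6 higher and 6 lower of 31 tested, and 4 and 6 of the 27 at log2 5 or more on both control arrays. Falls numbered 2 without replicate 2 of both constructs or control replicate 2. RUNX2 was at background in control cells and read 6.22 and 7.06 with both constructs, against 2.64 and 3.20 with control shRNA (3.72 ± 0.20, adjusted p = 0.000128). GATA3, known from T-cell development, was at 7.62 and 8.99 with both constructs, against 5.70 and 6.02 with control shRNA (2.45 ± 0.22, adjusted p = 0.000703). ID2, an inhibitor of E proteins, was at 10.20 and 11.04 with both constructs, against 8.90 and 9.02 with control shRNA (1.66 ± 0.16, adjusted p = 0.00115). The groups did not overlap in any of them. LMO2, a bridging factor of progenitor transcription complexes, was lower and was at 7.18 and 6.62 with both constructs, against 8.49 and 8.499 with control shRNA (-1.60 ± 0.22, adjusted p = 0.00393). The transcriptional cofactor gene MN1 fell to 5.10 and 4.87 with both constructs, against 7.15 and 6.95 with control shRNA (-2.06 ± 0.12, adjusted p = 0.000194). ERG (-0.99 ± 0.20) and BCL11A (-0.70 ± 0.12) fell as well. Within the CBFA2T3 family and its corepressor partners 0 of 21 tested genes rose and 2 fell, CBFA2T3 itself and LMO2. ERG and BCL11A lost the call without replicate 2 of both constructs or control replicate 2 (adjusted p up to 0.113).

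Genes of mature B and plasma cells had 7 higher and 2 lower of 18 tested. Rises numbered 3 without control replicate 2 and 4 without the replicate block. MS4A1, the gene of CD20, read 8.97 and 10.45 with both constructs, against 2.24 and 2.52 with control shRNA (7.33 ± 0.35, adjusted p = 8.21e-05). SPIB, an ETS factor of mature B cells, read 7.45 and 8.28 with both constructs, against 5.90 and 5.66 with control shRNA (2.09 ± 0.22, adjusted p = 0.00137). IRF4, a plasma-cell regulator, read 6.28 and 7.64 with both constructs, against 5.29 and 5.61 with control shRNA (1.51 ± 0.28, adjusted p = 0.0104). The groups did not overlap, and MS4A1 was at background in control cells. HHEX, a homeobox factor of blood progenitors, fell by 0.79 ± 0.10, and LMO2 was the other of the 2. IRF4 lost the call without control replicate 2 (adjusted p up to 0.0936). IRF4 missed the test without the replicate block (adjusted p = 0.0554).

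Pre-B receptor and recombination genes had 5 higher and 2 lower of 18 tested. The falls were 4 without replicate 1 of both constructs, 1 without any 1 array of the single constructs and 0 without replicate 2 of both constructs, control replicate 2 or the replicate block. Rises numbered 1 without control replicate 2, 2 without the replicate block and 3 without replicate 2 of both constructs. LYN, a Src-family kinase of B-cell receptor signalling, rose by 1.25 ± 0.18, the B-cell surface gene CD72 by 0.82 ± 0.13 and the μ heavy chain gene IGHM by 0.66 ± 0.11. DNTT, the terminal transferase of V(D)J joining, was very bright and was at 13.44 and 13.10 with both constructs, against 13.74 and 13.72 with control shRNA (-0.46 ± 0.12, adjusted p = 0.0326). A probe set assigned to IGLC1, a λ light chain constant gene with near-identical copies, read 11.71 and 12.79 with both constructs, against 8.49 and 8.70 with control shRNA (3.66 ± 0.20, adjusted p = 0.000141). The copy it measured is uncertain. Surface genes of progenitors had 3 higher and 7 lower of 18 tested. The rises were 1 without replicate 2 of both constructs or control replicate 2. Falls numbered 3 without control replicate 2 and 4 without replicate 2 of both constructs or the replicate block. PROM1, which codes for CD133, had the largest fall among the genes named here. It was at 6.74 and 5.97 with both constructs, against 8.76 and 9.27 with control shRNA (-2.66 ± 0.26, adjusted p = 0.00112), or 15.8% of control. The axon guidance receptor gene ROBO1 was at 7.64 and 8.30 with both constructs, against 6.28 and 6.14 with control shRNA (1.76 ± 0.22, adjusted p = 0.00285). Neither overlapped between groups. LYN and IGHM lost the call without control replicate 2 (adjusted p up to 0.0747). DNTT lost the call without replicate 2 of both constructs, control replicate 1 or control replicate 2 (adjusted p up to 0.221). IGHM and DNTT missed the test without the replicate block (adjusted p = 0.117).

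**Figure D4:**
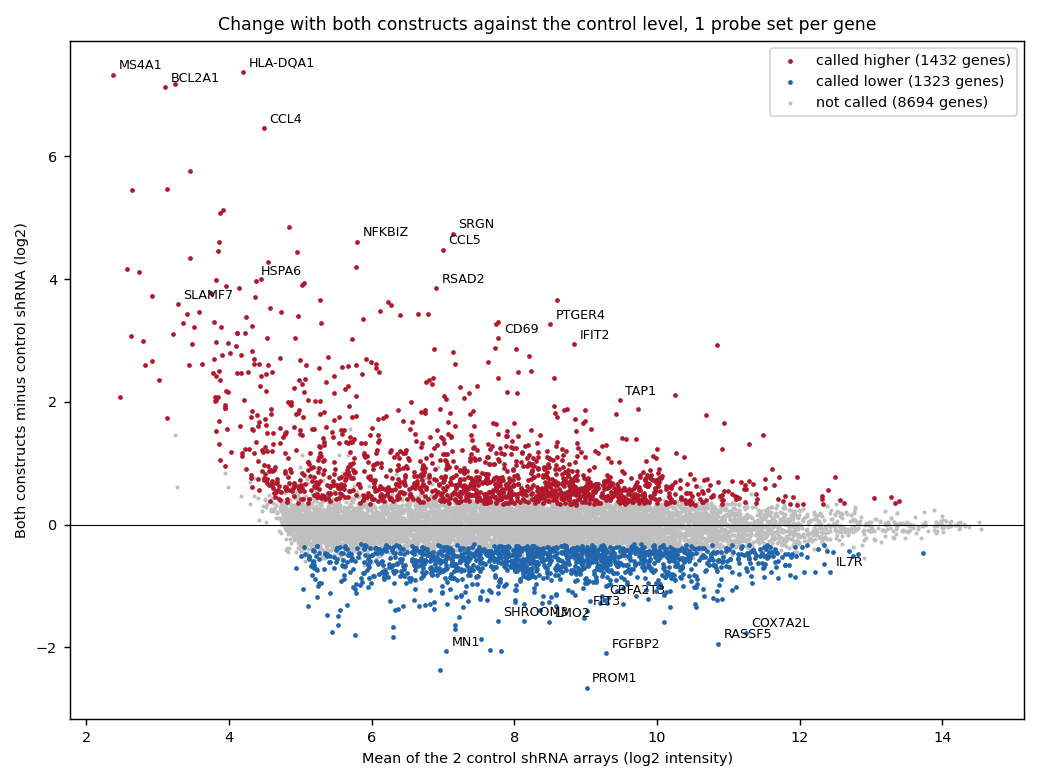
For 11449 genes, the mean level on the control arrays (log2, horizontal) and the change with both constructs (log2, vertical); genes called higher are red (1432), called lower blue (1323) and the rest grey. Rises above 5 start from control levels under log2 5, whereas SRGN, CCL5 and RSAD2 rose by 4.74, 4.48 and 3.85 from levels near log2 7, and the fall of PROM1, by 2.66, is the largest.

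Ranked among called genes at log2 6 or more on all 4 arrays without overlap between groups, SRGN had the largest rise. It codes for serglycin, the core proteoglycan of secretory granules, and read 11.26 and 12.51 with both constructs, against 7.05 and 7.24 with control shRNA (4.74 ± 0.22, adjusted p = 7.6e-05), a 26.8-fold difference. A further probe set rose by 5.29. TUBB2A, a β-tubulin gene with similar copies, was at 10.38 and 11.77 with both constructs, against 7.60 and 7.96 with control shRNA (3.30 ± 0.29, adjusted p = 0.000713). TMEM120A was at 9.39 and 11.06 with both constructs, against 6.85 and 6.74 with control shRNA (3.43 ± 0.41, adjusted p = 0.00235). In all 3 the control arrays lay close together and far below both arrays with both constructs. Probe sets of RAP1A, a small GTPase gene of integrin activation, disagreed. The brightest read 13.63 and 13.90 with both constructs, against 10.84 and 10.84 with control shRNA (2.92 ± 0.25, adjusted p = 0.000676). The others changed by 3.63, 0.40 and -0.96, and the last was called lower (adjusted p = 0.00474). RAP1A was the 1 called gene named here with a further probe set called in the opposite direction. Of 187 further tested probe sets of such genes, 133 were called in the same direction.

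The largest falls at that level were smaller than the rises. FGFBP2, a secreted protein known from cytotoxic lymphocytes, was at 7.23 and 7.14 with both constructs, against 9.02 and 9.56 with control shRNA (-2.10 ± 0.17, adjusted p = 0.000529), or 23.3% of control. RASSF5, a RAS effector and regulator of lymphocyte adhesion, was at 9.17 and 8.66 with both constructs, against 10.91 and 10.80 with control shRNA (-1.94 ± 0.16, adjusted p = 0.000529). COX7A2L, a factor of respiratory supercomplexes, read 9.72 and 9.25 with both constructs, against 11.22 and 11.27 with control shRNA (-1.76 ± 0.17, adjusted p = 0.00112). Genes of this ranking were chosen with no overlap between groups. BMPR2, a bone morphogenetic protein receptor, was at 6.69 and 6.42 with both constructs, against 8.04 and 8.23 with control shRNA (-1.58 ± 0.14, adjusted p = 0.000668). The actin-binding gene SHROOM3 was at 6.25 and 6.14 with both constructs, against 7.73 and 7.81 with control shRNA (-1.58 ± 0.11, adjusted p = 0.000311). PRKAR2B, a regulatory subunit of protein kinase A, was at 7.82 and 7.09 with both constructs, against 8.98 and 8.97 with control shRNA (-1.52 ± 0.17, adjusted p = 0.00194). In PRKAR2B the arrays with both constructs differed more than the control arrays. RASD1 (-1.60 ± 0.19), ATP2A1-AS1 (-1.39 ± 0.17), HMX2 (-1.35 ± 0.28), CHCHD10 (-1.34 ± 0.12), CLEC11A (-1.33 ± 0.22), LRRC59 (-1.30 ± 0.15) and RFLNB (-1.30 ± 0.17) completed the 15 largest with LMO2 and FLT3. Of the RASSF family and other regulators of RAS-type GTPases 4 rose and 5 fell of 17 tested. Rises numbered 0 without replicate 2 of both constructs or control replicate 2 and 1 without control replicate 1 or the replicate block. Falls numbered 3 without replicate 2 of both constructs or control replicate 2. TBC1D9, a Rab GTPase regulator, was at 5.73 and 5.49 with both constructs, against 7.69 and 7.62 with control shRNA (-2.05 ± 0.15, adjusted p = 0.000379), and RASSF10 fell by 1.48 ± 0.11. HMX2 lost the call without replicate 2 of both constructs or control replicate 2 (adjusted p up to 0.11). CLEC11A lost the call without control replicate 2 (adjusted p up to 0.0738). HMX2 and LRRC59 missed the test without the replicate block (adjusted p 0.0556 to 0.0655).

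Single genes of the cytoskeleton changed in both directions. The actin-bundling gene PLS3 read 7.86 and 9.33 with both constructs, against 3.46 and 2.80 with control shRNA (5.47 ± 0.42, adjusted p = 0.000457). The annexin genes ANXA1 and ANXA2, which bind membranes and actin, rose by 3.30 ± 0.21 and 1.94 ± 0.24, and CDC42EP3, a CDC42 effector, by 3.21 ± 0.32. The Rac exchange factor gene PREX1 fell to 6.97 and 7.27 with both constructs, against 8.36 and 8.41 with control shRNA (-1.27 ± 0.15, adjusted p = 0.00204). ACTN1, an actin crosslinker (-0.99 ± 0.17), and the tropomyosin gene TPM4 (-1.03 ± 0.15) fell as well. Further probe sets of TPM4 changed by -0.34 to -0.11 and were not called (adjusted p 0.0818 to 0.569). Integrins and adhesion molecules had 7 higher and 3 lower of 19 tested. The falls were 1 without the replicate block. Rises numbered 3 without the replicate block and 4 without replicate 2 of both constructs or control replicate 2. ITGB2, the β2 integrin chain, was at 7.90 and 9.97 with both constructs, against 5.35 and 5.20 with control shRNA (3.66 ± 0.49, adjusted p = 0.00355). Its arrays with both constructs lay far apart but above both control arrays. ALCAM rose by 1.53 ± 0.15, while ICAM4 (-0.88 ± 0.12) and CEACAM1 (-0.63 ± 0.11) fell. The 4 further probe sets of CEACAM1 changed by -0.09 to 0.14, and 0 of them were called. ACTN1 lost the call without replicate 2 of both constructs or control replicate 2 (adjusted p up to 0.0633). TPM4 lost the call without control replicate 2 (adjusted p up to 0.0508). ALCAM and CEACAM1 missed the test without the replicate block (adjusted p 0.0574 to 0.0841).

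In antigen receptor signalling 5 genes rose and 2 fell of 22 tested. The falls were 0 without replicate 2 of both constructs or control replicate 2 and 1 without the replicate block. Rises numbered 1 without control replicate 2, 2 without replicate 2 of both constructs and 3 without the replicate block. The T-cell kinase gene LCK was at 6.52 and 6.96 with both constructs, against 5.04 and 4.85 with control shRNA (1.80 ± 0.19, adjusted p = 0.00134), though its further probe set changed by 0.33 and was not called. Of the T-cell and NK-cell markers 8 reached the floor, 5 of them on both control arrays. Of the 8, 3 rose (37.5%, against 12.5% over all genes), LCK, GATA3 and NKG7, a cytotoxic granule gene (0.89 ± 0.14). Among the 5 only GATA3 rose, and their median change was -0.07, against 0.02 over the 8. The mean of the whole marker list was 4.62 and 4.70 with both constructs, against 4.49 and 4.40 with control shRNA. The part of other cells in these changes was not tested. NKG7 lost the call without replicate 2 of both constructs (adjusted p up to 0.0519).

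Part of the cell cycle genes were called lower. DNA replication and S-phase genes fell in 22 of 52 tested and rose in 0, with a median change of -0.43. G2/M and mitosis genes fell in 11 of 44 tested and rose in 0 (median -0.37). The medians were -0.19 and -0.09 in replicate 1 and -0.73 and -0.66 in replicate 2. The counts moved with single arrays. Of the S-phase genes 2 were called lower without replicate 2 of both constructs or the replicate block, and 1 without control replicate 2. For G2/M genes the count was 0 without either of these arrays, 3 without the block, 6 without either IKKβ(EE) array, 7 without either CBFA2T3 shRNA array and 28 without replicate 1 of both constructs. The replication kinase gene CDC7 was at 8.68 and 8.06 with both constructs, against 9.24 and 9.43 with control shRNA (-0.97 ± 0.18, adjusted p = 0.0112). The primase gene PRIM1 was at 9.39 and 8.74 with both constructs, against 9.83 and 10.24 with control shRNA (-0.97 ± 0.22, adjusted p = 0.0195). TPX2, a spindle assembly factor, was at 9.99 and 9.43 with both constructs, against 10.49 and 10.61 with control shRNA (-0.84 ± 0.16, adjusted p = 0.0117). In all 3 the groups did not overlap, and the gap was wider in replicate 2, as in 84.1% of all called genes. CDC7, PRIM1 and TPX2 lost the call without replicate 2 of both constructs or control replicate 2 (adjusted p up to 0.127).

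Inhibitors of the cell cycle and p53 targets rose in 12 of 29 tested genes and fell in 0. Rises numbered 4 without replicate 2 of both constructs or the replicate block and 5 without control replicate 2. PLK2, a stress-induced kinase gene, was at 8.72 and 9.37 with both constructs, against 7.59 and 7.27 with control shRNA (1.61 ± 0.21, adjusted p = 0.00355). GADD45A (1.28 ± 0.21) and TP53INP1 (1.15 ± 0.19), both known p53 targets, rose next to FAS. Among G1 cyclins and their kinases 3 of 14 tested genes rose and 1 fell, and of the 12 at log2 5 or more on both control arrays 1 rose. Without control replicate 2 the rises were 1. The falls were 4 without replicate 1 of both constructs and 0 without replicate 2 of both constructs, either control array or the replicate block. CCND2, which codes for cyclin D2, was at 7.38 and 8.29 with both constructs, against 3.89 and 4.02 with control shRNA (3.88 ± 0.18, adjusted p = 7.07e-05), a 14.7-fold difference with no overlap between groups. GADD45A lost the call without control replicate 2 (adjusted p up to 0.0699). TP53INP1 lost the call without replicate 2 of both constructs or control replicate 2 (adjusted p up to 0.0573). GADD45A and TP53INP1 missed the test without the replicate block (adjusted p 0.0628 to 0.128).

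A list of 43 genes associated with Hodgkin lymphoma cells had 30 of 35 tested members higher and 0 lower, with a median change of 2.01. That is 85.7% higher, against 12.5% over all genes. The list was chosen with earlier results of these data known, so this count is not a test of a likeness to those cells. Without the block 25 were called. Of the 26 at log2 5 or more on both control arrays 22 rose. The largest changes in it were those of EBI3, CCR7, CCL5 and SOCS1, given above. The list shares genes with those of chemokines and surface molecules, so its count is not independent of theirs.

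The same genes were then set against each construct alone, to ask where the pair of constructs differed from its parts. The comparisons with control share the control arrays, so values are given side by side. Against CBFA2T3 shRNA alone 5.56% of genes differed, 459 higher (4.01%) and 177 lower (1.55%) with both constructs. Against IKKβ(EE) alone 4.62% differed, 287 higher (2.51%) and 242 lower (2.11%). Without the block 0.952% of genes were called against CBFA2T3 shRNA alone, 104 higher (0.908%) and 5 lower (0.0437%). Against IKKβ(EE) alone 0.175% were called without it, 11 higher (0.0961%) and 9 lower (0.0786%).

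For several of the largest rises the level with both constructs was close to that with IKKβ(EE) alone. SRGN changed against control by 4.74 with both constructs, 0.39 with CBFA2T3 shRNA and 4.19 with IKKβ(EE). ICAM1 changed by 3.62 with both constructs, -0.005 with CBFA2T3 shRNA and 3.35 with IKKβ(EE). HLA-DQA1 was 6.24 ± 0.37 higher with both constructs than with CBFA2T3 shRNA alone (adjusted p = 0.000311). Its difference from IKKβ(EE) alone, 0.19 ± 0.37, did not pass (adjusted p = 0.797). LAMP3 and EBI3 exceeded CBFA2T3 shRNA alone by 5.83 and 5.82. Their differences from IKKβ(EE) alone, 1.09 and 0.66, did not pass (adjusted p = 0.0701 and 0.413). BCL2A1 was higher with both constructs than with CBFA2T3 shRNA alone by 6.22 and than with IKKβ(EE) alone by 1.70 (adjusted p = 1.59e-05 and 0.0116). MS4A1 exceeded the same groups by 7.30 and 2.42 (adjusted p = 0.000102 and 0.0223). Against IKKβ(EE) alone neither of the last 2 genes passed without the block (adjusted p = 0.148 and 0.104).

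A second set of genes was much higher with both constructs than with IKKβ(EE) alone. CCL4 read 10.28 and 11.61 with both constructs, 5.05 and 7.48 with CBFA2T3 shRNA, 7.70 and 8.29 with IKKβ(EE) and 4.54 and 4.43 with control shRNA. It exceeded IKKβ(EE) alone by 2.95 ± 0.50 (adjusted p = 0.0299). MMP10, a secreted protease gene, read 5.51 and 7.96 with both constructs, 2.90 and 3.07 with CBFA2T3 shRNA, 3.38 and 3.50 with IKKβ(EE) and 2.51 and 2.63 with control shRNA. Its difference from IKKβ(EE) alone was 3.29 ± 0.53 (adjusted p = 0.0264). In both genes the arrays with both constructs differed widely and lay above all others. DUSP5 (2.98 ± 0.38, adjusted p = 0.0162) and IFNL2 (2.92 ± 0.39, adjusted p = 0.0187) also exceeded IKKβ(EE) alone, with single constructs under log2 5. MMP10, DUSP5 and IFNL2 reached log2 5 only with both constructs, so they were tested only through the group in which they were high. None of these 4 differences passed without the block (adjusted p 0.0607 to 0.152).

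In the other direction CCL2, a monocyte chemokine, was at 3.88 and 3.90 with both constructs, against 6.14 and 5.85 with IKKβ(EE) alone (-2.11 ± 0.22, adjusted p = 0.0116). The syndecan gene SDC2 read 4.88 and 4.76 with both constructs, 4.13 and 3.46 with CBFA2T3 shRNA, 7.23 and 7.36 with IKKβ(EE) and 6.10 and 5.47 with control shRNA. It lay 2.47 ± 0.20 below IKKβ(EE) alone (adjusted p = 0.0062). FCGRT, the neonatal Fc receptor gene, was at 5.82 and 6.26 with both constructs, against 7.44 and 8.19 with IKKβ(EE) alone, and lay 1.77 ± 0.19 below it (adjusted p = 0.0117). The arrays with both constructs were below both with IKKβ(EE) alone in all 3. FCGRT missed the test of this difference without the block (adjusted p = 0.0674).

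Several falls with both constructs were of like size with CBFA2T3 shRNA alone. SHROOM3 changed against control by -1.58 with both constructs, -1.50 with CBFA2T3 shRNA and -0.37 with IKKβ(EE). Both constructs differed from CBFA2T3 shRNA alone by -0.08 ± 0.11 (adjusted p = 0.708) and from IKKβ(EE) alone by -1.21 ± 0.11 (adjusted p = 0.0099). COX7A2L changed by -1.76 with both constructs, -1.93 with CBFA2T3 shRNA and -0.02 with IKKβ(EE). LMO2 changed by -1.60 with both constructs, -1.77 with CBFA2T3 shRNA and -0.39 with IKKβ(EE). PROM1 was lower with both constructs than with IKKβ(EE) alone by 1.67 ± 0.26 (adjusted p = 0.0257). PROM1 missed the test of this difference without the block (adjusted p = 0.0746).

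Among the genes lowest with both constructs relative to CBFA2T3 shRNA alone, 2 were called higher with CBFA2T3 shRNA alone against control (adjusted p = 0.00836 for AGR2 and 0.00967 for PALD1) and were not called with both constructs against control (adjusted p = 0.791 and 0.450). AGR2, a secretory protein gene, read 5.87 and 4.88 with both constructs, 7.58 and 8.01 with CBFA2T3 shRNA and 5.79 and 5.20 with control shRNA. Both constructs were lower than CBFA2T3 shRNA alone by 2.43 ± 0.29 (adjusted p = 0.0058). PALD1 read 7.15 and 6.72 with both constructs, 8.16 and 8.83 with CBFA2T3 shRNA and 6.37 and 6.95 with control shRNA, a difference of -1.56 ± 0.25 from CBFA2T3 shRNA alone (adjusted p = 0.0181). PALD1 missed the test of this difference without the block (adjusted p = 0.058).

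**Figure D5:**
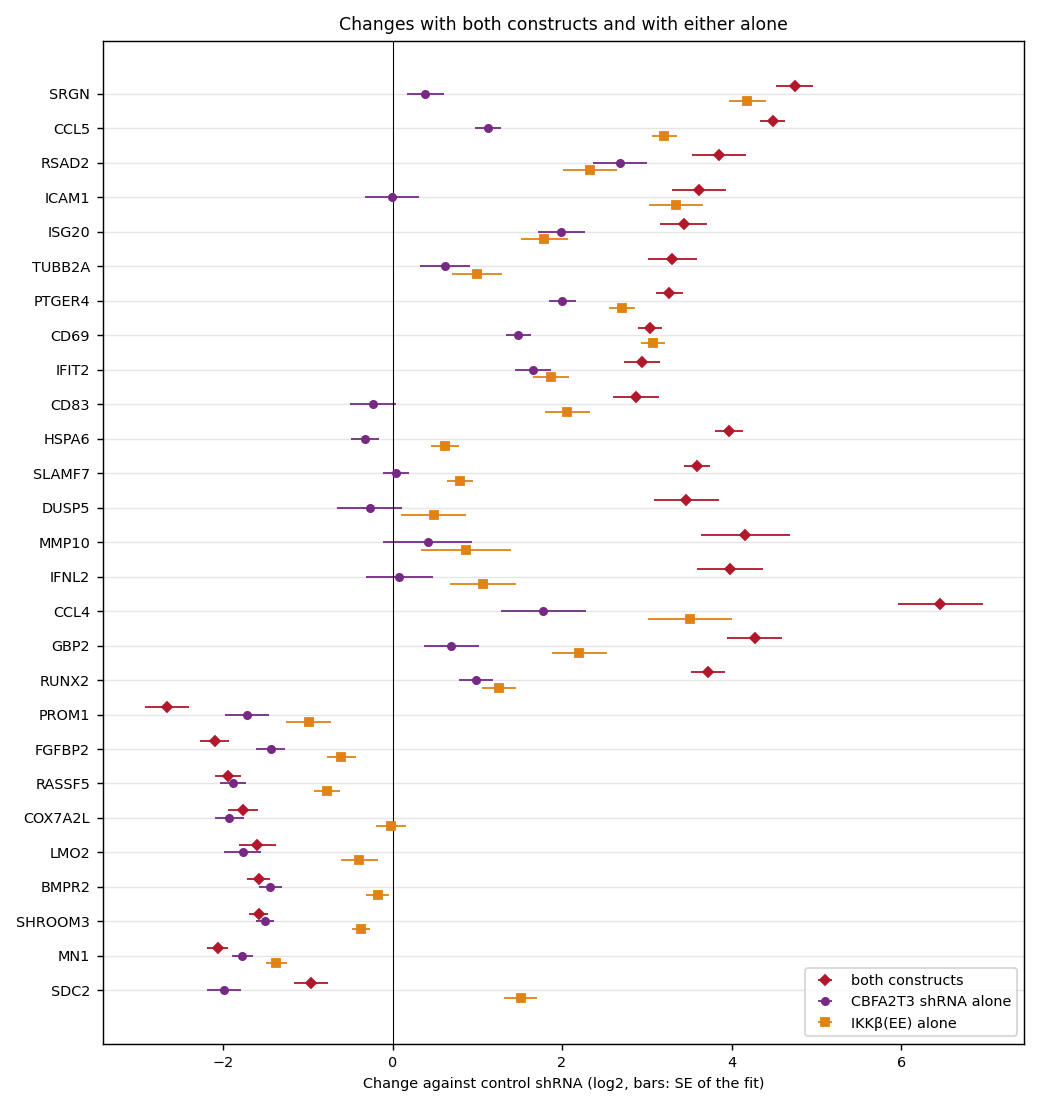
Change against control shRNA (log2, with bars for the standard error of the fit) of 27 genes with both constructs (red diamonds), CBFA2T3 shRNA alone (purple circles) and IKKβ(EE) alone (orange squares). HSPA6, SLAMF7, DUSP5, MMP10 and IFNL2 have small single changes beside changes of 3.46 or more with both constructs, and SHROOM3, BMPR2, LMO2 and COX7A2L have like values with both constructs and with CBFA2T3 shRNA.

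The last comparison asked whether the change with both constructs differed from the sum of the single changes. This interaction was called for 3 probe sets, or 0.0123% of those tested, all higher than the sum, and 1358 had an unadjusted p under 0.05 in limma. HSPA6, an inducible HSP70 family chaperone gene, read 8.42 and 8.27 with both constructs, 4.07 and 4.03 with CBFA2T3 shRNA, 5.17 and 4.81 with IKKβ(EE) and 4.19 and 4.56 with control shRNA. Its interaction was 3.68 ± 0.24 (adjusted p = 0.00868), and that of its other probe set 2.05 (adjusted p = 0.0669). SLAMF7, a receptor of activated lymphocytes and plasma cells, read 6.74 and 7.02 with both constructs, 3.15 and 3.51 with CBFA2T3 shRNA, 4.16 and 4.01 with IKKβ(EE) and 3.35 and 3.23 with control shRNA. Its interaction was 2.75 ± 0.21 (adjusted p = 0.021). A probe set that the annotation pairs with several symbols read 7.27 and 7.80 with both constructs, 2.74 and 3.21 with CBFA2T3 shRNA, 3.52 and 3.86 with IKKβ(EE) and 2.72 and 2.87 with control shRNA (3.67 ± 0.17, adjusted p = 0.00147). In all 3 the arrays with both constructs stood apart, and the other 6 arrays were near or under log2 5. SLAMF7 and the probe set with several symbols reached log2 5 on no other array, so they were tested only through the group in which they were high. Without the block 3 were called as well, and without either CBFA2T3 shRNA array 0 of these 3. Heat shock and chaperone genes as a list had 4 higher and 2 lower of 26 tested with both constructs against control. These are 15.4% and 7.69%, against 12.5% and 11.6% over all genes. Lists count only probe sets with 1 symbol, which 29 of the 34 genes listed had. The probe set with several symbols above is thus outside this count. Rises in the list were 2 without replicate 2 of both constructs, control replicate 2, any 1 array of the single constructs or the replicate block. The falls were 1 without replicate 1 of both constructs or either IKKβ(EE) array and 0 without replicate 2 of both constructs, either control array or the replicate block. Next to HSPA6 the largest rise was that of the co-chaperone gene DNAJB4, which was at 6.98 and 7.49 with both constructs, against 5.997 and 6.14 with control shRNA (1.17 ± 0.12, adjusted p = 0.00122).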

How the data were processed

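Gene expression was measured on 8 Affymetrix U133 Plus 2.0 arrays, and 4 of them, 2 per group, form the comparison of both constructs with control shRNA. The deposited log2 intensity values were made by the authors with RMA, per the submitters' processing notes. Its version, the chip definition and a genome build are not stated there, so probe sets have no coordinates. RMA sets arrays to a common distribution, which removes shifts shared by most transcripts. Of 54675 probe sets, 62 control probe sets and 30132 that reached log2 5 on fewer than 2 arrays were left out, and 24481 were tested. In GEO's platform annotation 41097 probe sets carry 1 symbol, 1801 several and 11777 none. Of those with 1 symbol 41043 matched RefSeq by gene identifier, and 0 symbols changed. A gene (11449 in all) is represented by its probe set with the highest mean over the 8 arrays. Probe sets of genes with near-identical copies (IGLC1, HSPA6, HLA genes, CCL4, IFNL2, TUBB2A, NCF1) may read more than 1 gene.

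The fit was made in limma 3.58.1 (R 4.3.3) with 4 group means and the replicate number as a block (3 residual and 4.36 prior degrees of freedom). Tests were two-sided, with p-values adjusted by Benjamini-Hochberg over 24481 probe sets. The labels give replicate numbers without saying what they share. They were taken as pairs because the differences between replicates 2 and 1 correlated, at 0.34 to 0.58, in all 6 pairs of groups. Precision is limited by the number of arrays. The median standard error was 0.12, and 0.333 is the smallest p of an exact permutation test of 2 against 2 arrays without pairing. Swaps within replicate pairs allow fewer arrangements, so the smallest p of a paired test is larger. The labels call the replicates biological without naming separate cultures, so p-values measure the spread between these samples. The fit was tested on simulated data.

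The members and gene lists were chosen with earlier results of these data known. Genes were named by rule. The first took the 15 largest rises and falls among called genes at log2 6 or more on all 4 arrays without overlap between groups. The second took called genes under log2 5 on both control arrays and at 8 or more with both constructs. Of these there were 10, and 0 met the reverse. For genes named by these rules a lack of overlap, wherever the text states it, was fixed by the choice. All 2755 genes called with both constructs against control changed in the same direction in both replicates. A lack of overlap stated for other called genes therefore adds little to the call. Further rules took up to 4 called members at either end of each list, and up to 5 at either end of the comparisons with single constructs. The limit of 5 also held for the interaction, and CBFA2T3, IKBKB and CSF1R were added. The text gives the larger changes among the 220 genes so named. Alternatives tried were other floors, moderation with a trend or robustly, weights per array, cyclic loess scaling, the 4 arrays alone, 1 probe set per gene, arrays set to 1 median, no block, and each array left out. Promoters are RefSeq windows on GRCh38.p14, and protein sequences were not used here. A gene list is not reported here.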

Additional observations from a re-analysis of the deposited data

Results flagged for a closer look

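In 3 probe sets the change with both constructs differed from the sum of the single changes, by a test of the difference itself. The interaction was 3.68 for HSPA6 (limma adjusted p = 0.00868), 2.755 for SLAMF7 (adjusted p = 0.021) and 3.67 for a probe set with several symbols (adjusted p = 0.00147). With either CBFA2T3 shRNA array left out the adjusted p was 0.159 and 0.157 for HSPA6, 0.180 and 0.157 for SLAMF7, and 0.0699 and 0.0571 for the unnamed probe set. SLAMF7 also missed the threshold without either IKKβ(EE) array (0.0604 and 0.113) and without either control array (0.136 and 0.0954). Values with the single constructs and control shRNA were near or under log2 5 in all 3. What lies behind the 3 interactions was not tested.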

How the results depend on the processing

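For both constructs against control, the count of 5810 probe sets (49.5% higher) became 2064 (55.5% higher) with no replicate block, 3174 and 532 from the 4 compared arrays alone with and without the block, and 3006 at 1 probe set per gene. Without 1 array it ranged from 1185 to 5478. Cyclic loess gave 56.7% higher. Against CBFA2T3 shRNA alone, 1244 became 211 with no block and 2205 with trend moderation, and ranged without 1 array from 159 to 2050. Against IKKβ(EE) alone, 1117 became 35 with no block, 2326 with trend moderation, 643 with no filter and 674 at 1 probe set per gene, and ranged from 4 to 1553. The interaction count of 3 was 5 at 1 probe set per gene, 6 with array weights, 16 with trend moderation, 10 with equal medians, 9 with a floor of log2 6 and 10 with no filter, and ranged from 0 to 57 without 1 array. With neither the block nor replicate 1 of both constructs these 4 counts were 3645, 836, 399 and 24, without the block and replicate 2 of both constructs 374, 108, 13 and 0, without it and control replicate 1 183, 69, 9 and 0, and without it and control replicate 2 82, 69, 9 and 0. The causes were not tested. Of 214 called named probe sets, 75 lost the call with no block, 87 without control replicate 2 and 76 without replicate 2 of both constructs. Signs turned without 1 array for CSF1R (-0.0302 to 0.2713), AGR2 (-0.5304 to 0.287) and PALD1 (-0.1535 to 0.7071). Without 1 array and the block they turned for AGR2 (0.37 and 0.17), PALD1 (-0.012), IKBKB on 1 probe set (-0.044), TRIB3 (-0.19 and -0.087) and CD9 (0.10 and 0.27).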

Other observations

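Glycolysis and hypoxia genes, not described above, had 3 members higher and 8 lower of 31 tested. For rises the count was 0 without replicate 2 of both constructs, control replicate 2 or the replicate block and 6 without replicate 1 of both constructs. Falls numbered 0 without replicate 2 of both constructs or control replicate 2, 1 without the replicate block and 5 without replicate 1 of both constructs. The mitophagy gene BNIP3 was at 9.97 and 10.20 with both constructs, against 10.54 and 11.68 with control shRNA (-1.02 ± 0.20, adjusted p = 0.0128). PFKM, a phosphofructokinase subunit, fell by 0.66 ± 0.12. The secreted peptide gene ADM was higher and was at 8.06 and 9.46 with both constructs, against 7.13 and 7.20 with control shRNA (1.60 ± 0.30, adjusted p = 0.0112). The unfolded protein and integrated stress response list had 5 higher and 6 lower of 33 tested. Rises numbered 0 without the replicate block, 2 without replicate 2 of both constructs or control replicate 2 and 3 without either IKKβ(EE) array. Falls numbered 0 without replicate 2 of both constructs or control replicate 2 and 2 without the replicate block. PPP1R15A, which codes for the phosphatase subunit GADD34, was at 7.10 and 8.01 with both constructs, against 5.35 and 6.23 with control shRNA (1.77 ± 0.17, adjusted p = 0.00105). DDIT3, a stress-induced transcription factor gene, rose by 0.73 ± 0.11, while the amino acid transporter genes SLC7A11 (-0.69 ± 0.12) and SLC7A5 (-0.58 ± 0.12) fell. BNIP3, PFKM, ADM, SLC7A11 and SLC7A5 lost the call without replicate 2 of both constructs or control replicate 2 (adjusted p up to 0.12). BNIP3, PFKM, ADM, SLC7A11, PPP1R15A and DDIT3 missed the test without the replicate block (adjusted p 0.0664 to 0.41).

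Cholesterol genes had 4 higher and 0 lower of 25 tested. Rises numbered 0 without the replicate block, 1 without control replicate 2 and 2 without replicate 2 of both constructs or either CBFA2T3 shRNA array. STARD4, a sterol carrier gene, was at 8.81 and 10.15 with both constructs, against 7.99 and 8.39 with control shRNA (1.29 ± 0.22, adjusted p = 0.0074), and the efflux transporter gene ABCA1 rose by 0.80 ± 0.11. MYC targets and ribosome biogenesis genes (2 higher and 2 lower of 36), proteasome subunits (1 higher of 27) and oxidative phosphorylation subunits (2 lower of 45) were under the background share of 24.1% called. Without replicate 2 of both constructs, control replicate 2 or the replicate block, 0 of the MYC list were called either way and 1 of the oxidative phosphorylation list was called lower, and without any 1 array of the single constructs or replicate 1 of both constructs 1 of the MYC list was called lower. Oxidative phosphorylation falls were also 1 without control replicate 1. B-precursor markers had 2 higher and 3 lower of 16 tested. Their rises were 1 without any 1 array or the replicate block, and their falls 5 without replicate 1 of both constructs and 0 without replicate 2 of both constructs, control replicate 2 or the replicate block. Myeloid markers had 2 higher and 1 lower of 9 tested, with 1 higher without replicate 2 of both constructs, control replicate 2, either CBFA2T3 shRNA array or the replicate block, and NCF1, an oxidase subunit gene with near-identical copies, was at 7.92 and 8.28 with both constructs, against 6.53 and 6.53 with control shRNA (1.56 ± 0.15, adjusted p = 0.000969). At 1 probe set per gene, erythroid and stromal markers had 0 of 6 and 0 of 3 called in limma with and without the block. A further probe set of COL1A1, on the stromal list, read 6.97 and 8.31 with both constructs, against 3.96 and 3.89 with control shRNA. That difference, 3.72 ± 0.30 from control values under log2 5, was called (adjusted p = 0.000546). TFRC, the transferrin receptor gene on the erythroid list, changed by -0.36 ± 0.11 on its brightest probe set and did not pass (adjusted p = 0.058). Its further probe sets changed by -0.74 and -0.51 and were called lower (adjusted p = 0.00495 and 0.0401). STARD4 lost the call without control replicate 2 (adjusted p up to 0.0753). STARD4 and ABCA1 missed the test without the replicate block (adjusted p 0.0851 to 0.101).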
